A study of Homo sapiens with 9 samples.

Results

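Gene expression was compared between HEK293 cells transfected with an siRNA against ZNF326 (3 arrays labelled siZNF326) and cells transfected with a control siRNA (3 arrays labelled siCTR), which are 6 of the 9 arrays of the study. The members are these 6 arrays and all 22011 probe sets of the array, with no choice by measured value. HEK293 is an established line from human embryonic kidney that carries adenovirus genes, among them E1B, whose product binds the tumour suppressor p53. All groups were grown in the same serum-containing medium and harvested 48 h after transfection with stealth siRNAs (modified RNA duplexes), and the study design speaks of 3 independent experiments. The remaining 3 arrays are labelled siDBC1 and received an siRNA against DBC1, the protein of the gene CCAR2. They serve here to estimate the spread and to be set beside the ZNF326 arrays. The use of 1 cell line and 1 time after transfection and the lack of a measure of the ZNF326 protein limit what the comparison can show. Each value is a log2 expression value of bulk RNA, so a change in the share of cells that express a gene and a change in RNA per cell cannot be told apart.

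ZNF326 (alias ZIRD) is a nuclear protein with zinc fingers. With DBC1 it forms the DBIRD complex, which binds RNA polymerase II and newly made messenger ribonucleoprotein particles and affects elongation and the inclusion of exons rich in A and T. Most of the transcripts that moved here belong to other programs, and 2 of them recur below. In the integrated stress response, kinases that sense amino acid shortage or misfolded proteins phosphorylate the initiation factor eIF2, translation of the transcription factor ATF4 goes up, and ATF4 raises genes for amino acid uptake, amino acid synthesis and tRNA charging. In the p53 response, the tumour suppressor p53 raises genes for cell cycle arrest, apoptosis and DNA repair.

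The targeted transcript was examined first. ZNF326 (probe set 2346074) read 5.25, 5.64 and 5.76 on the siCTR arrays and 6.12, 5.56 and 5.81 on the arrays labelled siZNF326. The groups overlapped, and the highest of these 6 values was on an array labelled siZNF326. The difference was 0.28 (SE 0.39, limma adjusted p = 0.851), with a 95% interval from −0.63 to 1.20, so a fall of ZNF326 mRNA was not seen. The group name is therefore used only as the label of the arrays, and every direction given below is that of the arrays so labelled. On the siDBC1 arrays ZNF326 read 6.24, 5.64 and 7.32. CCAR2 (probe set 3089597), the partner in the complex, read 7.67, 7.67 and 7.84 on the siCTR arrays and 8.01, 7.95 and 7.99 on the arrays labelled siZNF326. The arrays did not overlap, but the difference of 0.26 did not pass (adjusted p = 0.377). On the siDBC1 arrays CCAR2 stood at 6.50, 6.54 and 6.65, and the difference between siZNF326 and siDBC1, 1.42, passed (adjusted p = 0.00311).

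**Figure D1:**
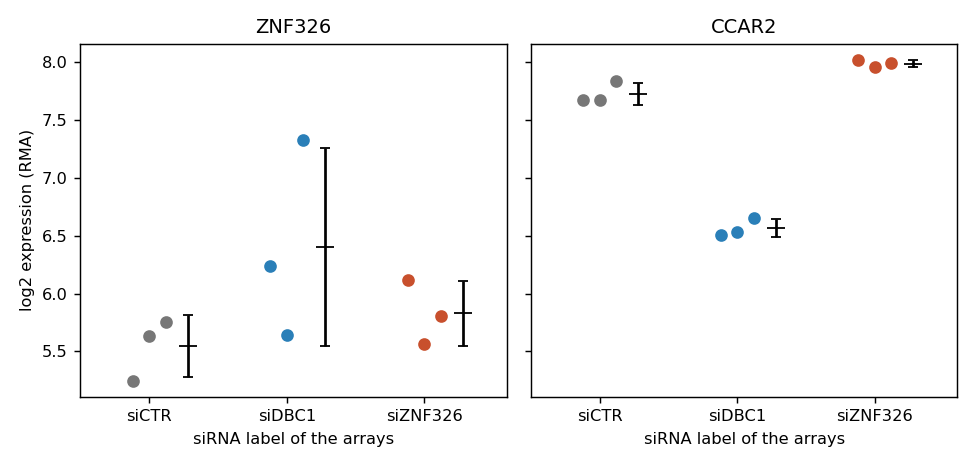
Log2 expression of ZNF326 (left) and CCAR2 (right) on the 9 arrays, by the siRNA label of the array, with 1 point per array and the mean and SD of 3 arrays beside the points. ZNF326 overlaps between siCTR and siZNF326, and CCAR2 is lowest on the 3 siDBC1 arrays, between 6.50 and 6.65.

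Array medians ran from 5.67 to 5.78 on the siCTR arrays and were 5.90, 5.77 and 5.76 on the arrays labelled siZNF326. Replicate 1 of siZNF326 stood apart, with correlations of 0.971 to 0.979 to the siCTR arrays against 0.984 to 0.987 for replicates 2 and 3, taken across probe sets, which are not independent replicates. KRT8, KRT18, SALL1 and the neurofilament gene NEFL, which HEK293 cells are known to express, lay above the upper quartile of all 6 arrays. NEFM and INA lay above it on 3. The markers PTPRC, CD3E and LYZ of blood cells and DCN of fibroblasts lay below the lower quartile of all 6. Other markers of these cell types did not. HBB lay below it on 4 arrays, LUM on 5 and THY1 on 1. CD14, CD68, COL1A1, COL1A2, COL3A1 and PDGFRB lay below it on 0 arrays. PAX2, LHX1 and EYA1, genes of the developing kidney, lay between the quartiles, as did the epithelial markers EPCAM, CDH1 and KRT19.

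In the arrays labelled siZNF326, 11 genes of the integrated stress response fell, most of them for the uptake, synthesis or charging of amino acids. The called rises held 2 targets of p53, a lysosomal enzyme, chaperones and genes of the cytoskeleton and of neurons. Limma with Benjamini-Hochberg adjustment called 33 of 22011 probe sets at an adjusted p below 0.05, which is 0.15% of those tested. Of these, 20 were higher (0.0909%) and 13 lower (0.0591%). The smallest change among them was 1.51-fold and the largest 4.90-fold. Without adjustment 1904 probe sets had a p under 0.05, of which 1349 were higher. All 3 arrays labelled siZNF326 lay above all 3 siCTR arrays for 12.9% of probe sets and below them for 5.27%, and each of the 33 called probe sets was among these. How the calls split between directions changed with the scaling. Quantile normalization gave 89 calls that were higher beside 107 that were lower, and centring each array on its median gave 57 beside 62. The median change of all probe sets was 0.032 as deposited, −0.039 after quantile normalization and −0.059 after centring. Of all 14232 genes with 1 symbol, 8147 lay above siCTR and 6051 below. Their median was 0.033, or 0.084 for those with a mean log2 value of 5 or more. The counts of called and of non-overlapping members and the medians of gene lists below are to be read against these shares and values.

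The number of calls changed when arrays were left out, and leaving out any 1 of the 6 compared arrays lowered it. The count was 5 when only the 6 arrays compared entered the fit. It was 2 without siCTR replicate 1, 2 without siCTR replicate 2 and 1 without siCTR replicate 3. Of the siDBC1 arrays, leaving out replicate 1 gave 2 calls, replicate 2 gave 64, and replicate 3 gave 26, of which 24 were among the 33. It was 3 without siZNF326 replicate 1, 1 without siZNF326 replicate 2 and 2 without siZNF326 replicate 3. Among the 33 called probe sets CHAC1 kept its call in all 9 such omissions, and 31 kept it in 2 or fewer. Every one of the 33 kept its sign in each omission, which had to follow because their siCTR and siZNF326 arrays did not overlap.

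**Figure D2:**
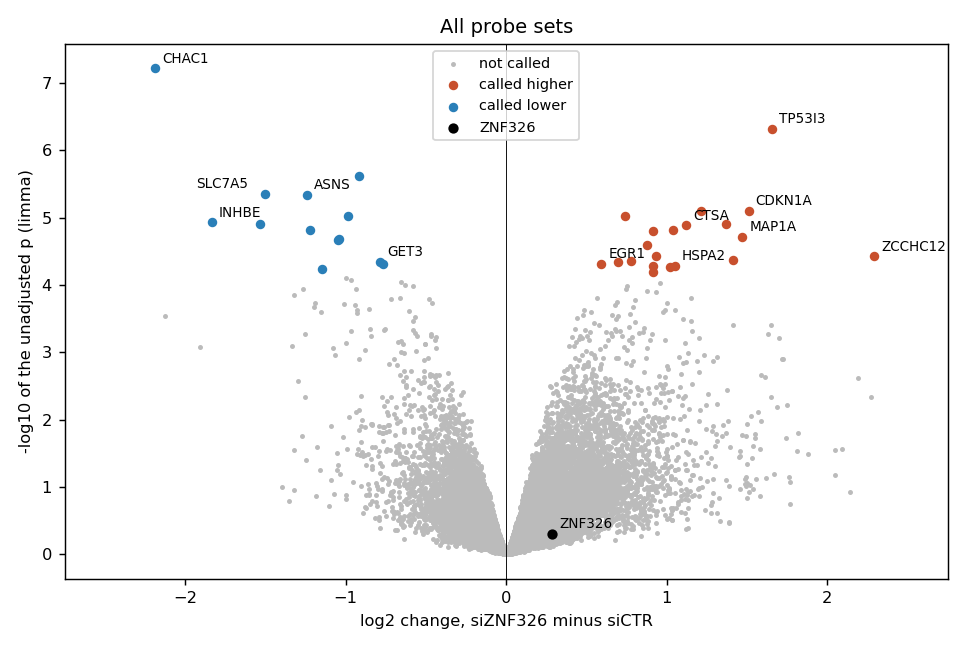
Log2 change in siZNF326 against siCTR (x axis) and −log10 of the unadjusted limma p (y axis) for 22011 probe sets, with called probe sets in colour, 20 higher and 13 lower, and ZNF326 in black. CHAC1 at −2.19 and TP53I3 at 1.66 have the smallest p on either side, and ZNF326 lies near the bottom at 0.28.

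CHAC1, an enzyme that degrades glutathione and a known target of ATF4, had the largest fall. It read 7.65, 7.65 and 7.94 on the siCTR arrays and 5.42, 5.70 and 5.55 on the arrays labelled siZNF326. This is a fall by 2.19 (SE 0.11, adjusted p = 0.00133) or 4.56-fold, and omissions of single arrays left it between −2.26 and −2.09. On the siDBC1 arrays the change of CHAC1 against the same controls was −1.46, and the difference between both siRNAs, −0.73, did not pass (adjusted p = 0.204). INHBE, a subunit of the secreted activins, read 6.24, 6.55 and 6.59 on the siCTR arrays and 4.65, 4.90 and 4.32 on the arrays labelled siZNF326. It fell by 1.84 (adjusted p = 0.0216) or 3.57-fold. DDIT3 encodes CHOP, a transcription factor induced by the stress response. Its values were 6.56, 6.70 and 6.97 against 5.69, 5.43 and 5.66, a fall by 1.15 (adjusted p = 0.0391).

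Genes for the uptake of amino acids were the next group. SLC7A5, the light chain of a transporter of leucine and other large neutral amino acids, went from 8.63, 8.79 and 9.0 to 7.48, 7.28 and 7.15. It fell by 1.5 (SE 0.13, adjusted p = 0.0200) or 2.83-fold. SLC43A1, another carrier of large neutral amino acids, read 7.48, 7.66 and 7.85 in siCTR and 6.63, 6.24 and 6.46 in the arrays labelled siZNF326, and fell by 1.22 (adjusted p = 0.0216). SLC6A9 takes up glycine. It read 7.45, 7.43 and 7.60 against 6.51, 6.59 and 6.63, and fell by 0.92 (adjusted p = 0.0176). In siDBC1 these carriers differed from siCTR by −0.96, −0.82 and −0.58. Among the uncalled transporters SLC3A2, the heavy chain that pairs with SLC7A5, differed by −0.94 (adjusted p = 0.0743). The cystine carrier SLC7A11, which supplies glutathione synthesis, had the largest difference of an uncalled gene in these lists, −2.12 (adjusted p = 0.0836), with 8.11, 8.30 and 8.68 against 6.55, 5.91 and 6.26.

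Enzymes that make amino acids and a charging enzyme fell too. ASNS, which makes asparagine, read 9.86, 9.86 and 10.02 on the siCTR arrays and 8.76, 8.59 and 8.67 on the arrays labelled siZNF326. It fell by 1.24 (SE 0.11, adjusted p = 0.0200) or 2.36-fold. PCK2, the mitochondrial form of phosphoenolpyruvate carboxykinase, went from 7.90, 8.08 and 8.47 to 6.76, 6.50 and 6.59, a fall by 1.53 (adjusted p = 0.0216). CBS makes cystathionine from homocysteine and serine on the way to cysteine. It read 9.13, 9.20 and 9.42 against 8.32, 8.21 and 8.10, and fell by 1.04 (adjusted p = 0.0250). PHGDH catalyses the first step of serine synthesis from glucose. It read 10.48, 10.50 and 10.64 against 9.82, 9.77 and 9.71, and fell by 0.77 (adjusted p = 0.0376). MARS1, which charges the tRNA of methionine, read 9.82, 9.90 and 10.07 against 8.95, 8.94 and 8.76, and fell by 1.05 (adjusted p = 0.0250). The siCTR and siZNF326 arrays did not overlap for any of these 5 genes. That held for each of the 33 called probe sets and so adds nothing to the calls. Over all probe sets 5.27% were lower in this way.

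Besides these genes, a probe set shared by EPB41L4A-AS1, SNORA13 and EPB41L4A read 8.16, 8.17 and 8.21 on the siCTR arrays and 7.24, 7.16 and 7.19 on the arrays labelled siZNF326, and fell by 0.98 (adjusted p = 0.0216). Which of these 3 genes the probes measured cannot be told from the table.

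ATF4 and related factors bind a composite site, the C/EBP-ATF response element, searched here as TGATGNAA on both strands of the 250 bases before each start site in RefSeq (GRCh38.p14). CHAC1 and ASNS are the called lower genes whose windows hold it, 2 of 11 with a window, and they are shown to place the site, in capitals, in its surroundings. The CHAC1 window is chr15:40953221-40953470 on the plus strand, with the site on its reverse strand 209 to 202 bases before the start. The ASNS window is chr7:97872409-97872658 on the minus strand, with the site 68 to 61 bases before the start, where it overlaps a match to the heat shock element core GAANNTTC at 64 to 57.
CHAC1: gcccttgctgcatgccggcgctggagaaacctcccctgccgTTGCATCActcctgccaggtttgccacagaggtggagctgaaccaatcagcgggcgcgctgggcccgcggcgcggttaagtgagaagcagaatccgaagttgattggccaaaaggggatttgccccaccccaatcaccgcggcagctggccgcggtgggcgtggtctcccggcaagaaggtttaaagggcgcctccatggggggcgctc
ASNS: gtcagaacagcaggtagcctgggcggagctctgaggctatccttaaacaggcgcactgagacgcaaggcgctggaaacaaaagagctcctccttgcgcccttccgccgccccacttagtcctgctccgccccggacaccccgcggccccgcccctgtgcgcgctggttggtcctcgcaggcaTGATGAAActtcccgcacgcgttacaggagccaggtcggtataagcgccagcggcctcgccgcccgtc

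The site stood in the windows of 3.89% of 27305 genes and of 14 of the 71 stress response genes with a window (19.7%). In the arrays labelled siZNF326, 11 of these 14 genes lay below siCTR, 10 of them with no overlap of the arrays, and the 14 had a median change of −0.55. Those not called, named here for the site, were CEBPG, AARS1, GARS1, SLC1A5, HERPUD1, IARS1, JDP2, ATF3 and FGF21 below siCTR and SLC1A3, GOT1 and PPP1R15B above it. Of the 57 stress response genes without the site in this window, 38 lay below siCTR, 25 of them with no overlap of the arrays, and their median change was −0.24. Limma called 8 of these 57 and 2 of the 14 lower, about the same share of each, beside 0.0591% of all probe sets. Over all probe sets 5.27% were lower with no overlap of the arrays. Whether genes with and without the site differ was not tested. A match describes these letters only, and a window without one says nothing of the factor.

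Over all 5 stress response lists together, 85 of 98 genes were measured, and 60 lay below siCTR and 25 above. The arrays did not overlap for 43 lower genes and 6 higher ones, while over all probe sets 5.27% were lower and 12.9% higher in this way. Limma called 11 of the 85 lower and 0 higher, beside 0.0591% lower and 0.0909% higher of all probe sets. The median change was −0.33, beside 0.033 for all 14232 genes with 1 symbol, and array by array the labelled siZNF326 arrays gave medians of −0.22, −0.46 and −0.38 relative to the siCTR mean. The siDBC1 median for the same genes was −0.45.

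The lists differed among themselves. Their calls, here and in the paragraphs that follow on this response, stand beside 0.0591% of all probe sets called lower. Enzymes of amino acid synthesis and one-carbon metabolism had a median of −0.83, with 8 of 14 genes below siCTR, 4 of them called (ASNS, PCK2, CBS and PHGDH), and 6 above. The serine hydroxymethyltransferase SHMT2 differed by −0.93 (adjusted p = 0.0798) and MTHFD2, which passes on the same one-carbon units in mitochondria, by −1.25 (adjusted p = 0.108). Cytosolic tRNA synthetases had a median of −0.48, with 14 of 18 below siCTR and MARS1 called. Those with the next smallest p charge glycine, alanine and cysteine: GARS1 at −0.76, AARS1 at −0.85 and CARS1 at −1.07 (adjusted p of 0.106, 0.106 and 0.150). Mitochondrial tRNA synthetases had 9 of 12 genes above siCTR and a median of 0.17, with 0 called. That median was 0.095 without siZNF326 replicate 1, 0.030 after quantile normalization and 0.083 after centring.

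Secreted and redox factors downstream of the stress response had a median of −0.33, with 15 of 17 below siCTR and CHAC1 and INHBE called. Without siZNF326 replicate 1 the median was −0.63. VEGFA, an angiogenic growth factor, differed by −0.97 (adjusted p = 0.0526), the mTORC1 inhibitor DDIT4 by −1.01 (adjusted p = 0.0743) and the secreted glycoprotein STC2 by −1.15 (adjusted p = 0.0798), and none of these 3 was called. Amino acid transporters had a median of −0.19, with 13 of 19 below siCTR, 3 of them called. It was −0.36 without siZNF326 replicate 1 and −0.31 after quantile normalization.

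Regulators of the response were mixed. Their median was −0.056, with 12 of 19 below siCTR and DDIT3 called, and it was 0.0037 without siCTR replicate 3 and −0.14 without siCTR replicate 2. CEBPG, a partner of ATF4, differed by −1.32 (adjusted p = 0.0678), the pseudokinase TRIB3 by −0.93 (adjusted p = 0.0789) and the transcription factor JDP2 by −0.44 (adjusted p = 0.109). ATF4 mRNA itself, chosen after its values were seen, read 5.98, 5.98 and 5.99 on the siCTR arrays and 6.03, 5.86 and 6.05 on the arrays labelled siZNF326. The ATF4 arrays overlapped, and the protein, whose amount is set largely by translation, was not measured.

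**Figure D3:**
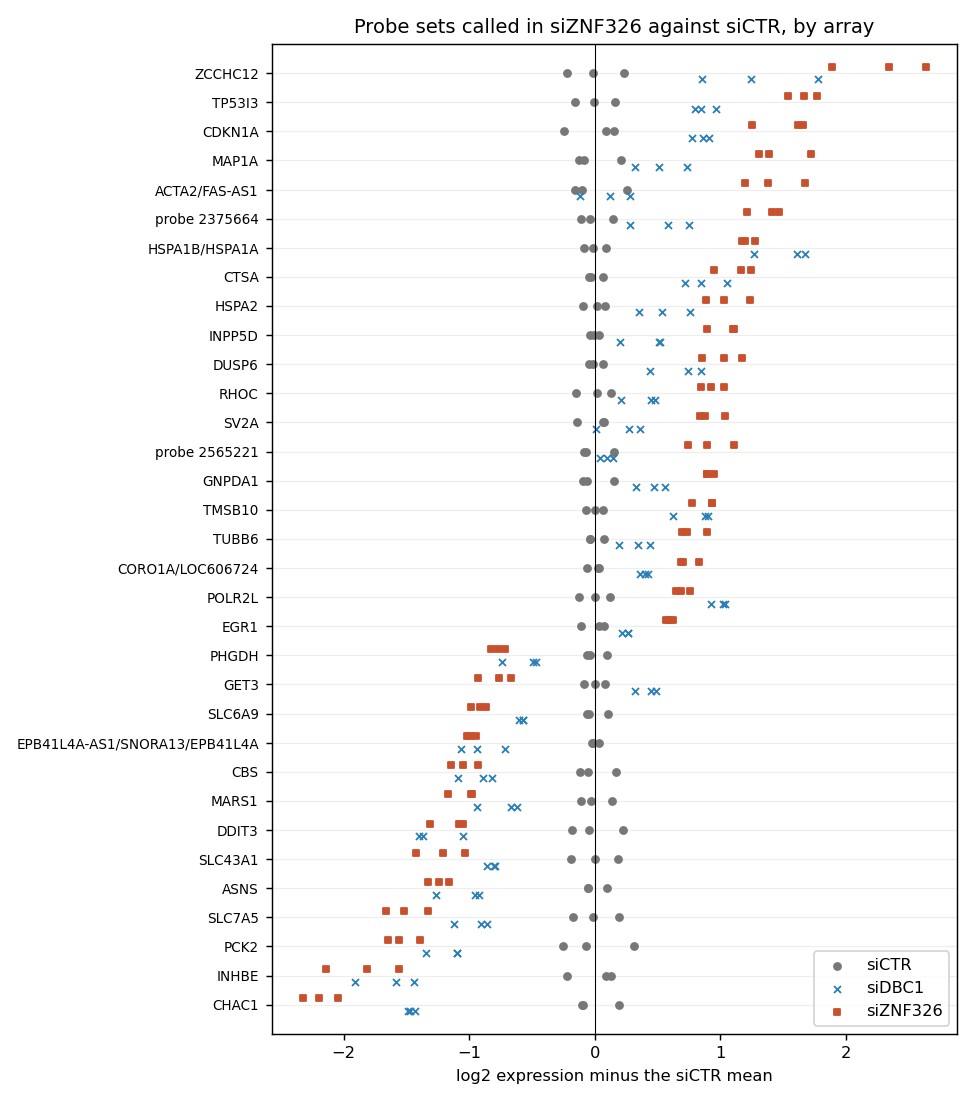
Log2 expression minus the siCTR mean (x axis) on each of the 9 arrays for the 33 called probe sets, ordered by their change in siZNF326, with symbols for siCTR, siDBC1 and siZNF326 arrays. The siZNF326 squares lie outside the siCTR circles in all 33, and GET3 is the called gene whose siDBC1 crosses lie on the other side of siCTR from its siZNF326 squares.

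The largest rise was that of ZCCHC12, a zinc finger protein known as a coactivator in bone morphogenetic protein signalling. It read 5.86, 5.65 and 6.11 on the siCTR arrays and 8.51, 8.22 and 7.77 on the arrays labelled siZNF326. It rose by 2.29 (SE 0.27, adjusted p = 0.0375) or 4.90-fold, and in siDBC1 it differed by 1.29.

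Of the p53 targets, 2 rose. TP53I3, a quinone oxidoreductase linked to reactive oxygen, read 5.78, 5.46 and 5.61 on the siCTR arrays and 7.39, 7.28 and 7.15 on the arrays labelled siZNF326. This was a rise by 1.66 (SE 0.11, adjusted p = 0.00523) or 3.15-fold. CDKN1A encodes p21, an inhibitor of cyclin-dependent kinases that halts the cell cycle. It went from 7.16, 6.82 and 7.22 to 8.72, 8.68 and 8.32, a rise by 1.51 (SE 0.14, adjusted p = 0.0216) or 2.85-fold. In siDBC1, TP53I3 and CDKN1A differed from siCTR by 0.87 and 0.85.

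Among 37 of 43 listed p53 targets that were measured, 34 lay above siCTR, and for 27 of them the arrays did not overlap, beside 12.9% of all probe sets. The median change was 0.51. Limma called TP53I3 and CDKN1A higher, beside 0.0909% of all probe sets, and 0 lower. Array by array the medians relative to the siCTR mean were 0.77, 0.44 and 0.43, with replicate 1, the array that stood apart, the highest. Leaving out 1 array at a time gave medians between 0.47 and 0.60. A pair of p53 half-sites, searched in the same promoter windows, stood in 0 of 29 p53 targets with a window and in 0.033% of all genes.

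Genes of arrest and feedback had 13 of 13 members above siCTR and a median of 0.47. The kinase PLK2 differed by 1.19 (adjusted p = 0.163) and SESN1, a sestrin, by 0.96 (adjusted p = 0.249). MDM2, the ligase that degrades p53, read 7.78, 7.83 and 8.32 on the siCTR arrays and 9.58, 9.11 and 8.84 on the arrays labelled siZNF326, a difference of 1.20 (adjusted p = 0.207). These arrays did not overlap, with replicate 1 the highest of the 3 and replicate 3 the lowest. Genes of apoptosis had 11 of 13 members above siCTR and a median of 0.54. BAX, which opens the outer mitochondrial membrane, came nearest to a call among them at 0.94 (adjusted p = 0.0613), with 7.14, 7.20 and 7.53 against 8.29, 8.30 and 8.08.

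Genes of repair and metabolism had 10 of 11 members above siCTR, a median of 0.48 and 0 calls. POLH, a polymerase that copies damaged DNA, differed by 1.23 (adjusted p = 0.150), and TIGAR, a regulator of glycolysis, by 1.59 (adjusted p = 0.217). The nucleotide excision repair factor XPC differed by 0.58 (adjusted p = 0.415). The BCL2 family as a whole, which shares BAX with the p53 lists, had 10 of 13 members above siCTR and a median of 0.14, which was 0.071 without siCTR replicate 2, 0.092 without siZNF326 replicate 1, 0.034 after quantile normalization and 0.052 after centring. Its other members with the smallest p were HRK at −0.34, BAK1 at 0.37 and BID at 0.16.

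Genes of the cell cycle machinery were not called in either direction. The 29 S-phase and replication genes had a median of −0.00048, with 14 above and 15 below siCTR. Omissions of single arrays gave −0.050 without siZNF326 replicate 1 to 0.059 without siCTR replicate 3. CDT1, which licenses replication origins, differed by −0.57 (adjusted p = 0.106), and the replicative helicase subunit GINS1 by 0.88 (adjusted p = 0.128). The 27 genes of G2/M and mitosis had a median of 0.15, which was −0.076 without siZNF326 replicate 1, 0.082 without siCTR replicate 2, 0.021 after quantile normalization and 0.057 after centring. The mitotic kinase AURKB differed by −0.56 (adjusted p = 0.138).

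CTSA, or cathepsin A, a lysosomal carboxypeptidase that also protects the sialidase NEU1, rose. It read 7.18, 7.20 and 7.30 on the siCTR arrays and 8.47, 8.39 and 8.18 on the arrays labelled siZNF326, a rise by 1.12 (SE 0.11, adjusted p = 0.0216) or 2.17-fold. Its partner NEU1 read 7.34, 7.34 and 7.45 against 8.03, 8.08 and 8.06 and differed by 0.68 (adjusted p = 0.106). Among the other enzymes and membrane proteins with the smallest p were the galactosidase GLA at 0.70 and LAMP1 at 0.47. The list of lysosomal enzymes and membrane proteins had 22 of 25 genes above siCTR and a median of 0.23. That median was 0.14 without siZNF326 replicate 1, 0.10 after quantile normalization and 0.14 after centring.

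The proton pump that acidifies lysosomes had 11 of 12 subunit genes above siCTR, with a median of 0.45 and 0 called. ATP6V0D1, a subunit of its membrane part, read 7.73, 7.80 and 7.95 on the siCTR arrays and 8.68, 8.63 and 8.43 on the arrays labelled siZNF326, a difference of 0.75 (adjusted p = 0.0577). ATP6V1A, a catalytic subunit, differed by 0.74 (adjusted p = 0.271) and ATP6V1E1 by 0.57 (adjusted p = 0.283). The distance of the list from the siCTR mean was 0.73, 0.45 and 0.30 on the 3 arrays.

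Transcription factors of the TFEB family, which control lysosomal genes, bind a site that contains the E-box CACGTG. The CTSA window, chr20:45891085-45891334 on the plus strand in GRCh38.p14, is shown because it holds 2 copies close to the start, in capitals, at 42 to 37 and 25 to 20 bases before it.
CTSA: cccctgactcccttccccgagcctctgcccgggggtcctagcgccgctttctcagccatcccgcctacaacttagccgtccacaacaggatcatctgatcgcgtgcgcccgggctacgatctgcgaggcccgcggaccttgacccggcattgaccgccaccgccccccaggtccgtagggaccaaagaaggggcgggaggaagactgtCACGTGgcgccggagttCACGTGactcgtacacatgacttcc

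The E-box stood in the windows of 7.73% of all genes and of 10 of the 27 lysosomal genes with a window (37%). It stood in 2 of 15 called higher genes (13.3%), in 3 of 11 called lower genes (27.3%), which were SLC7A5, SLC43A1 and GET3, and in 18.3% of the stress response genes. Of these 10 genes 8 lay above siCTR with a median change of 0.27, among them CTSA, ATP6V0D1, NEU1 and LAMP1. The 17 without an E-box in the window all lay above siCTR, with a median of 0.22.

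Chaperones of the HSP70 family rose in 1 single gene and 1 shared probe set. HSPA2 read 6.85, 6.97 and 7.03 on the siCTR arrays and 8.18, 7.98 and 7.83 on the arrays labelled siZNF326, and rose by 1.05 (SE 0.13, adjusted p = 0.0376) or 2.07-fold. The probe set shared by the near-identical heat-inducible genes HSPA1A and HSPA1B went from 9.45, 9.56 and 9.38 to 10.74, 10.64 and 10.66. It rose by 1.22 (adjusted p = 0.0216), and the 2 genes cannot be told apart. All 11 measured members with a symbol of their own lay above siCTR, with a median of 0.28 that was 0.14 without siZNF326 replicate 1. HSPA4L differed by 1.20 (adjusted p = 0.369) and HSPH1 by 0.94 (adjusted p = 0.501). Other chaperones of cytosol and mitochondria, led by the HSP70 partner DNAJB1 at 0.66 (adjusted p = 0.247), had 10 of 13 above siCTR, a median of 0.12 (0.050 after quantile normalization and 0.024 after centring) and 0 called.

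Folding and degradation genes of the endoplasmic reticulum were split. Of 20 genes, 13 lay above siCTR and 7 below, 0 were called, and the median was 0.29, or 0.12 without siZNF326 replicate 1. The calcium-binding chaperone CALR differed by 0.58 (adjusted p = 0.132), CRELD2 by 0.34, the disulfide isomerase PDIA4 by 0.43 and SDF2L1 by 0.31.

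A set of cytoskeletal genes rose. MAP1A, which binds microtubules in neurons, read 4.76, 4.80 and 5.09 on the siCTR arrays and 6.60, 6.18 and 6.27 on the arrays labelled siZNF326, and rose by 1.47 (SE 0.16, adjusted p = 0.0248) or 2.77-fold. TUBB6, a beta tubulin, went from 7.19, 7.20 and 7.31 to 8.13, 7.97 and 7.93, a rise by 0.77 (adjusted p = 0.0376). TMSB10 binds actin monomers. It read 8.93, 8.86 and 9.0 against 9.86, 9.70 and 9.86, and rose by 0.88 (adjusted p = 0.0282). RHOC, a GTPase that promotes actin fibres and cell movement, read 8.18, 8.01 and 8.30 against 9.01, 9.19 and 9.09, and rose by 0.93 (adjusted p = 0.0375).

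Probe sets with several symbols added to this group. One shared by ACTA2, smooth muscle actin, and FAS-AS1 read 6.63, 6.68 and 7.05 against 8.46, 8.16 and 7.98 and rose by 1.42 (adjusted p = 0.0376), while its siDBC1 change was 0.095. Another, shared by CORO1A, which binds actin filaments, and LOC606724, read 6.25, 6.15 and 6.25 against 6.92, 6.90 and 7.05 and rose by 0.74 (adjusted p = 0.0216). This call was lost after quantile normalization and after centring (adjusted p of 0.127 and 0.0623).

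Neuronal genes had MAP1A and SV2A called among 22 measured, beside 0.0909% of all probe sets called higher. SV2A, a membrane protein of synaptic vesicles, read 6.86, 6.64 and 6.85 on the siCTR arrays and 7.82, 7.62 and 7.66 on the arrays labelled siZNF326, and rose by 0.92 (SE 0.12, adjusted p = 0.0420) or 1.89-fold. The neurofilament genes were not called. NEFM read 5.46, 6.02 and 6.05 against 8.17, 7.24 and 7.26, with replicate 1 the highest, a difference of 1.72 (adjusted p = 0.158). INA differed by 0.95 (adjusted p = 0.220) and NEFL by 0.44 (adjusted p = 0.323), while in siDBC1 INA differed by −0.27. In all 19 of 22 neuronal genes lay above siCTR, with a median of 0.15, or 0.056 after centring.

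Genes of growth factor signalling had 2 calls. DUSP6, a phosphatase that switches off the kinase ERK and is itself induced by it, read 4.52, 4.49 and 4.6 on the siCTR arrays and 5.57, 5.39 and 5.71 on the arrays labelled siZNF326. It rose by 1.02 (SE 0.13, adjusted p = 0.0376) or 2.03-fold. EGR1, an immediate early transcription factor, read 6.08, 6.12 and 5.93 against 6.61, 6.66 and 6.63, with little spread among the siZNF326 arrays. It rose by 0.59 (SE 0.073, adjusted p = 0.0376) or 1.51-fold, but was not called after quantile normalization or after centring (adjusted p of 0.211 and 0.150).

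The window before EGR1, chr5:138465229-138465478 on the plus strand in GRCh38.p14, is shown because EGR1 is a textbook target of serum response factor, which binds the CArG box. It holds 2 matches to the CArG box, in capitals, at 105 to 96 and 83 to 74 bases before the start. A match stood in the windows of 1.44% of all genes and of 2 of 17 immediate early genes with a window.
EGR1: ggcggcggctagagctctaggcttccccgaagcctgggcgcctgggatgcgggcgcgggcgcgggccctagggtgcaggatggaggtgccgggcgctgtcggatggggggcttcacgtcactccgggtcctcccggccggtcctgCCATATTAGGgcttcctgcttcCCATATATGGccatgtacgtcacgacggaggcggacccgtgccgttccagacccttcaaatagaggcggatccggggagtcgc

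ERK output and feedback genes had 14 of 16 above siCTR and a median of 0.22, or 0.11 after quantile normalization. After DUSP6 the smallest p belonged to ETV5 at 0.54, IER3 at 0.34 and the receptor EPHA2 at 0.21, none of them called. Among 22 immediate early genes EGR1 was called, and their median was 0.10 as deposited and −0.027 after quantile normalization. JUNB, a subunit of the AP-1 factor, read 6.35, 6.12 and 6.27 on the siCTR arrays and 6.77, 6.72 and 6.73 on the arrays labelled siZNF326, a difference of 0.49 (adjusted p = 0.106). FOS differed by 0.39 (adjusted p = 0.385). MYC lay on the other side at −0.63 (adjusted p = 0.204), with 8.72, 8.65 and 8.77 against 8.14, 8.0 and 8.10.

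Further rises fell outside these programs. INPP5D, the lipid phosphatase SHIP1 known mainly from blood cells, read 6.11, 6.14 and 6.18 on the siCTR arrays and 7.25, 7.25 and 7.04 on the arrays labelled siZNF326, and rose by 1.04 (SE 0.11, adjusted p = 0.0216). The blood cell markers PTPRC, CD3E and LYZ were below the lower quartile on the same 6 arrays. HBB was below it on 4, and CD14 and CD68 on 0. Of these 6 markers, 0 were called. GNPDA1, which returns glucosamine phosphate to glycolysis, went from 6.43, 6.46 and 6.68 to 7.42, 7.42 and 7.47, a rise by 0.92 (adjusted p = 0.0216). The other genes of glycolysis and hexosamine metabolism had 0 calls, and the list of 19 had a median of 0.17, or 0.072 without siZNF326 replicate 1, 0.10 after quantile normalization and 0.074 after centring. Called probe sets without a symbol were 2375664, which rose by 1.37, and 2565221, which rose by 0.92. The latter read between 1.0 and 1.24 in siCTR and between 1.83 and 2.20 in the arrays labelled siZNF326, far below the lower quartile of every array.

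The transcription machinery, with which the complex is studied, had 1 call. POLR2L, a small subunit shared by the nuclear RNA polymerases, read 6.89, 6.76 and 7.01 on the siCTR arrays and 7.54, 7.64 and 7.57 on the arrays labelled siZNF326. It rose by 0.70 (SE 0.086, adjusted p = 0.0376) or 1.62-fold, and its siDBC1 change was 1.0. POLR2L was not called after quantile normalization or after centring (adjusted p of 0.229 and 0.0850). The 10 subunit genes of RNA polymerase II had a median of 0.34, with 8 above siCTR. POLR2A, the largest subunit, differed by 0.55 (adjusted p = 0.367). Elongation factors had 17 of 20 above siCTR and a median of 0.32, or 0.20 without siZNF326 replicate 1. HEXIM1, which holds the elongation kinase P-TEFb inactive, read 5.57, 5.71 and 5.71 against 6.84, 6.60 and 6.48 and differed by 0.98 (adjusted p = 0.0798).

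Genes of splicing were not called. SR proteins and hnRNPs had 21 of 23 above siCTR and a median of 0.19, or 0.11 without siZNF326 replicate 1, with HNRNPM at 0.33 (adjusted p = 0.501) having the smallest p. Core spliceosome genes had 22 of 28 above siCTR, beside 8147 of all 14232 genes with 1 symbol, and a median of 0.12. It was −0.0029 after quantile normalization, 0.031 after centring, 0.047 without siZNF326 replicate 1, 0.054 without siCTR replicate 1 and 0.19 without siCTR replicate 3. U2AF2, which recognises the polypyrimidine tract, differed by 0.58 (adjusted p = 0.30). Partners of the complex and relatives of CCAR2 had 9 of 11 genes above siCTR, a median of 0.22 and 0 called. That median was 0.095 without siZNF326 replicate 1 and 0.13 after quantile normalization. Among partners of CCAR2 the deacetylase HDAC3 differed by 0.72 (adjusted p = 0.109). It read 8.11, 8.07 and 8.14 in siCTR and 8.90, 8.71 and 8.87 in the arrays labelled siZNF326. Inclusion of single exons was not analysed here.

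GET3 set the arrays labelled siZNF326 apart from those labelled siDBC1. This ATPase hands tail-anchored proteins to the membrane of the endoplasmic reticulum. It read 8.29, 8.37 and 8.45 on the siCTR arrays and 7.71, 7.61 and 7.44 on the arrays labelled siZNF326, and fell by 0.78 (SE 0.095, adjusted p = 0.0376) or 1.72-fold. On the siDBC1 arrays it read 8.82, 8.70 and 8.86, above the siCTR arrays. The difference between siZNF326 and siDBC1, −1.21, passed (adjusted p = 0.0219). That comparison called 2 of 22011 probe sets (0.00909%), GET3 and CCAR2. Of the other genes of the pathway, SGTA differed from siCTR by 0.29, CAMLG by −0.23, GET1 by 0.27 and BAG6 by 0.10, with 0 called. For the remaining 32 called probe sets the difference between both siRNAs did not pass, which does not show that they act alike. The siDBC1 mean of these 32 lay on the same side of siCTR as the siZNF326 mean. Of the 33, 5 were also called in siDBC1 against siCTR, which had 8 calls. The siDBC1 change was 1.52 for HSPA1A/HSPA1B, −1.27 for DDIT3 and 0.80 for TMSB10, but 0.095 for ACTA2/FAS-AS1. Both comparisons use the same siCTR arrays, so they are not independent.

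Lists of metabolism had higher medians without calls. Cholesterol synthesis and uptake genes had 14 of 16 above siCTR and a median of 0.37, or 0.24 after quantile normalization. HMGCS1, which makes the precursor of mevalonate, read 7.77, 7.67 and 7.69 on the siCTR arrays and 8.96, 8.59 and 8.40 on the arrays labelled siZNF326, a difference of 0.95 (adjusted p = 0.358). LSS, which closes the sterol rings, differed by 0.36 (adjusted p = 0.311). The sterol regulatory element, searched as TCACCCCAC, stood in the windows of 0 of 15 cholesterol genes with a window and of 0.45% of all genes. Genes of fatty acid synthesis had a median of 0.15, led by the desaturase FADS2 at 0.67 (adjusted p = 0.311). It was 0.045 without siZNF326 replicate 1, 0.23 without siZNF326 replicate 3 and 0.054 after centring. For oxidative phosphorylation 45 of 54 genes lay above siCTR with a median of 0.22, which was 0.14 without siCTR replicate 1 and 0.10 after quantile normalization. UQCRQ, a subunit of complex III, differed by 1.0 (adjusted p = 0.0737), COX7A2 by 1.26 (adjusted p = 0.271) and NDUFB2 by 0.65 (adjusted p = 0.106). Targets of the oxidative stress factor NRF2 had a median of 0.27, with HMOX1, which degrades haem, at 0.90 (adjusted p = 0.112) and SLC7A11 on the other side. It was 0.17 without siCTR replicate 2, 0.12 after quantile normalization and 0.18 after centring.

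Interferon and NF-kB responses, which siRNA transfection can itself evoke, were examined as lists, beside genes of small RNA silencing and of hypoxia. Both groups were transfected and no group was left untransfected. A response that both groups share therefore does not show in these differences. Interferon and double-stranded RNA response genes had 14 of 24 above siCTR, a median of 0.018 and 0 calls, with IFI6 at 0.32 (adjusted p = 0.587). That median was −0.022 after quantile normalization, −0.074 after centring and between −0.0019 and 0.038 over omissions of single arrays, those values coming without siCTR replicate 2 and without siCTR replicate 1. NF-kB targets had a median of 0.061 and 0 calls, with −0.062 after quantile normalization, −0.031 after centring, 0.011 without siCTR replicate 2, 0.022 without siCTR replicate 1 and 0.033 without siZNF326 replicate 2. Genes of small RNA silencing had 11 of 13 above siCTR, with a median of 0.29 that was 0.16 without siCTR replicate 1. TNRC6A differed by 0.83 (adjusted p = 0.390), AGO1 by 0.50 and TNRC6B by 0.65, none of them called. Hypoxia targets, which share VEGFA and DDIT4 with the stress lists, had 9 of 16 above siCTR and a median of 0.053, which was −0.10 after quantile normalization, −0.039 after centring and −0.019 without siZNF326 replicate 1. Without siCTR replicate 1 it was 0.0063 and without siCTR replicate 3 it was 0.091.

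**Figure D4:**
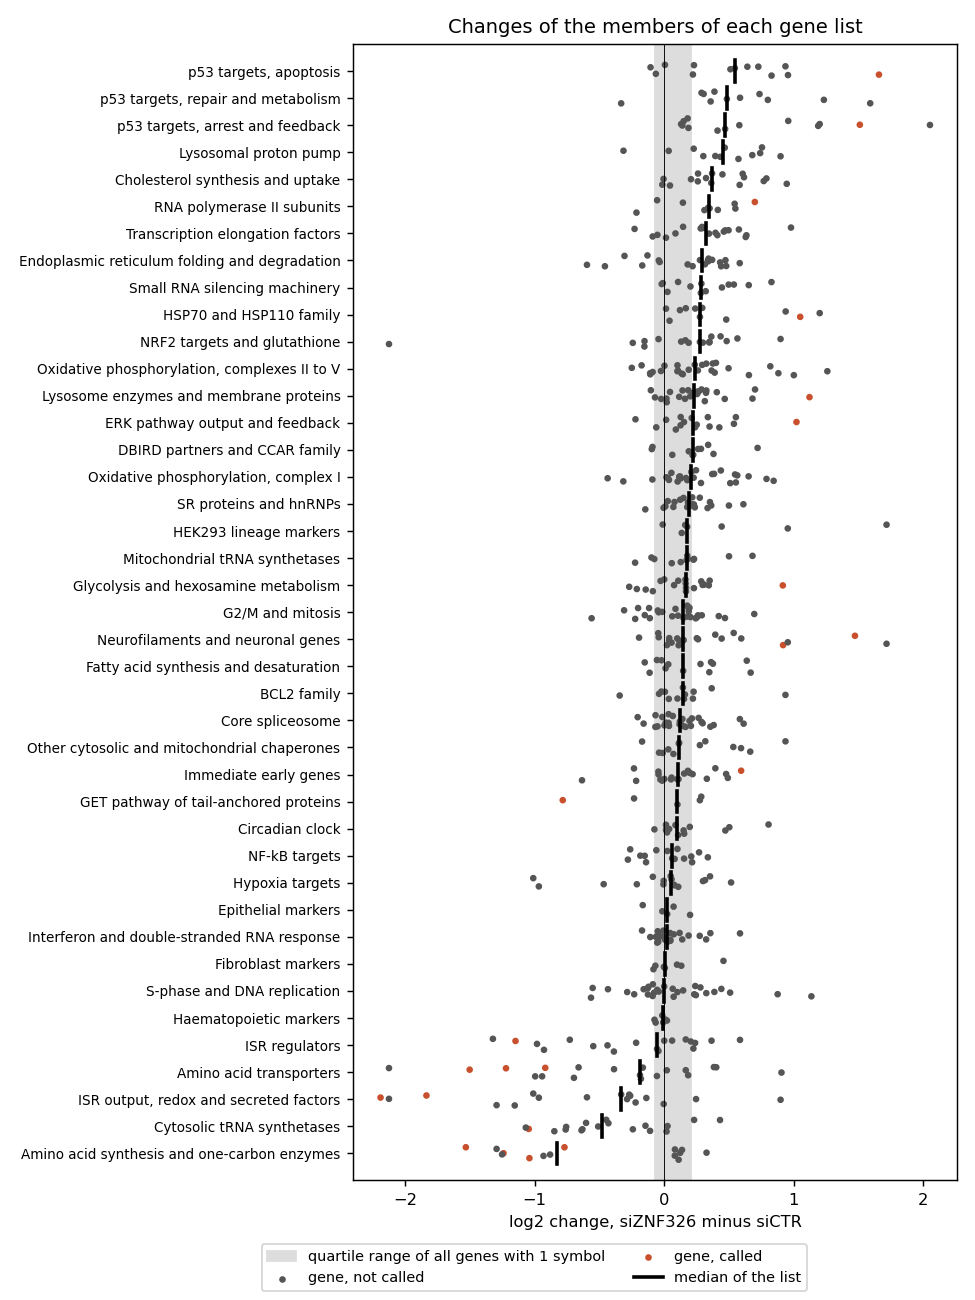
Log2 change in siZNF326 against siCTR (x axis) of every measured gene of each list shown, with called genes in orange, the list median as a bar and the range between the quartiles of all genes with 1 symbol in grey. Medians run from −0.83 for amino acid synthesis to 0.54 for p53 targets of apoptosis.

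Below the threshold, the 15 single-symbol genes per direction with the smallest p whose arrays did not overlap had adjusted p values from 0.0526 to 0.0836. Of the higher 15, 11 were called after quantile normalization and 12 after centring, and of the lower 15, 14 and 12. The higher ones, with changes from 0.48 to 1.15, held further genes beside BAX, ATP6V0D1, UQCRQ and HEXIM1. The cell adhesion gene PCDH10 read 6.75, 6.77 and 7.02 on the siCTR arrays and 8.10, 7.90 and 7.99 on the arrays labelled siZNF326, a difference of 1.15. The taurine carrier SLC6A6 differed by 0.99, the Ral exchange factor RGL1 by 0.96, the lipid droplet gene FITM2 by 0.88 and the repressor ZBTB18 by 0.80. PNP, a purine phosphorylase, differed by 0.79, the lipid kinase PIK3C2B by 0.69, NYNRIN by 0.68, the cytokine CSF1 by 0.57, LBH by 0.53 and TENT5A by 0.48. SLC6A6 read 6.82, 6.83 and 6.81 on the siCTR arrays, 7.94, 7.71 and 7.76 on the arrays labelled siZNF326, and 7.33, 6.76 and 7.29 on the siDBC1 arrays, which spread the most.

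The lower ones beside the stress response genes already named were fewer. The collagen receptor DDR2 read 7.03, 6.95 and 7.43 on the siCTR arrays and 5.87, 5.76 and 5.98 on the arrays labelled siZNF326, a difference of −1.27. The fucosyltransferase FUT1 and the receptor GPR31 both differed by −1.19. GPR31 read low, with 4.14, 3.84 and 3.55 on the siCTR arrays. On the arrays labelled siZNF326 it read 2.45, 2.80 and 2.71, below the lower quartile of each. It was called after quantile normalization (limma adjusted p = 0.0275) but not after centring (0.0697). The GTPase effector CDC42EP1 differed by −0.72, SEPHS1, a paralog of selenophosphate synthetase, by −0.63, the AT-hook factor AKNA by −0.58 and the LIM homeobox factor ISL2 by −0.46. SEPHS1 and FUT1, like CEBPG, hold TGATGNAA or its reverse complement in a promoter window, at 115 to 108 bases before the start in SEPHS1 and 119 to 112 in FUT1. RGL1, among the 15 higher genes, holds it too, at 68 to 61.

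**Figure D5:**
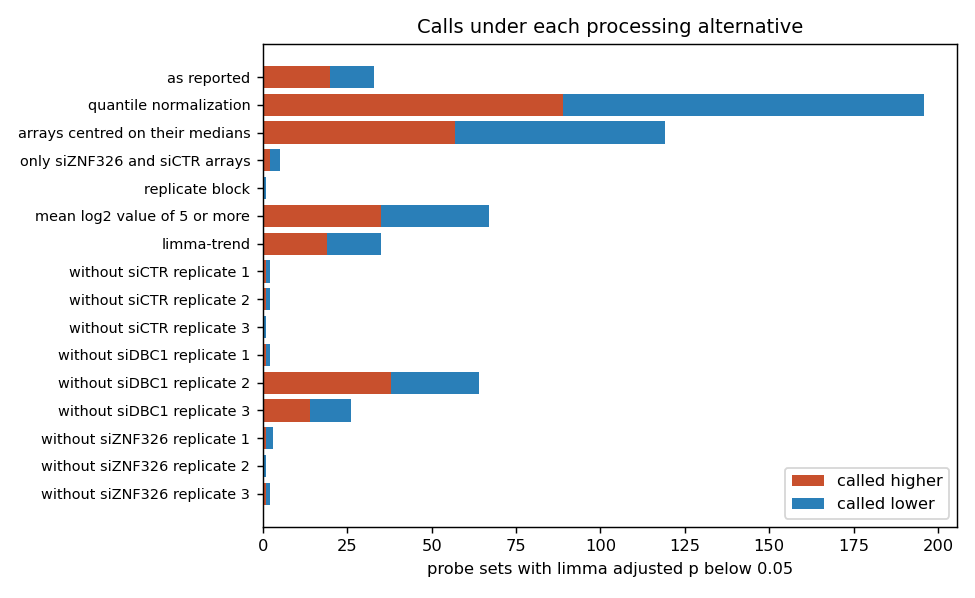
Number of probe sets called in siZNF326 against siCTR (x axis) under each processing alternative, split into called higher and called lower. The bar for the values as deposited stands at 33, and the alternatives run from 1 to 196.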

How the data were processed

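Total RNA of HEK293 cells was extracted on columns and treated there with DNase. Ribosomal RNA was removed and biotin label added by the whole-transcript protocol of Affymetrix, per the labels' protocols. The deposited values are log2 expression values made with RMA, per the submitters' processing notes, 1 per probe set and array, with probe annotation on hg18. For RMA, neither version nor filters are given in the sources used here. The log base rests on RMA and the range of the values. Of 22011 probe sets 14432 had 1 symbol, 2408 several and 5171 none. Arrays give no read depth, and their number limits the precision.

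Limma 3.58.1 (lmFit, eBayes) in R 4.3.3 was fitted to all probe sets on all 9 arrays by group, two-sided, with Benjamini-Hochberg adjustment and a threshold of 0.05, and was tested on simulated data. P-values measure the spread between these samples. Named genes were ZNF326, CCAR2, all called probe sets, the 15 uncalled genes per direction with the smallest p and no overlap between arrays, and in each list the called members and up to 4 with the smallest p. Each named gene had 1 probe set, the one with the highest mean unless another was called. List counts and medians always used the one with the highest mean. Members and lists were chosen with earlier results of these data known, so list counts and medians are descriptions without a test, and 1 list is not reported here. Promoter windows came from RefSeq (GRCh38.p14). Alternatives were quantile normalization, centring, the 6 arrays alone, a replicate block, a minimum mean of 5, limma-trend, each array left out and, for lists, all probe sets of a gene averaged.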

Additional observations from a re-analysis of the deposited data

How the results depend on the processing

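Against 33 calls, limma called 196 probe sets after quantile normalization, 119 with arrays centred on their medians, 67 of 13947 with a mean log2 value of 5 or more, 35 with limma-trend and 5 with only the 6 arrays compared. Of the 33, 30 were called after quantile normalization and 30 after centring, where EGR1, POLR2L and CORO1A/LOC606724 were not. Omissions of single arrays gave 1 to 64 calls. With a replicate block 1 probe set was called, CHAC1 (2007 at an unadjusted p under 0.05). Same-numbered arrays did not deviate together, with correlations of −0.124, 0.0958 and −0.181 between siZNF326 and siCTR, so the numbers were not taken as pairs. For named called genes the call was lost in 184 of 243 values from omissions and in 54 of 162 from other alternatives. No direction turned, but only quantile normalization and centring could have turned one. Omissions could not, as the arrays of these genes did not overlap, and the remaining alternatives leave the difference itself unchanged. Of 690 list medians, 25 changed sign, in 12 lists. In the 3 of these lists that hold a called member, the turned medians were 0.0037 for regulators of the stress response without siCTR replicate 3 (−0.14 to 0.0037 over single omissions), and −0.027 for immediate early genes and −0.0092 for the GET pathway after quantile normalization. The other 9 lists, with no called member, were hypoxia, interferon and NF-kB targets, S-phase, G2/M, the core spliceosome and the epithelial, fibroblast and haematopoietic markers. The causes were not tested. ZNF326 was not called under any alternative, with differences of 0.13 to 0.42.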
